A study of Mus musculus with 123 samples.

Results

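Whole lung from mice sensitized to ovalbumin (OVA) was compared at 24 h against 6 h, over all 13053 annotated genes, to describe what changed in the sensitized lung between these times. The comparison takes 14 arrays, 8 at 6 h and 6 at 24 h, out of 62 sensitized and 61 naive arrays of the study, chosen by their labelled arm and time alone. Each array carried RNA of 1 BALB/c mouse, so the replicates are separate animals, numbered here in the order of deposit only. Naive mice at 6 h and at 24 h, 8 arrays each, served as the background of time of day, since its hours match.

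The design text says that both arms received the OVA challenge, whereas the titles of the naive samples carry PBS, so what the naive mice inhaled is not settled by the labels. It states 8 animals at each time, and 6 arrays of sensitized mice at 24 h were analysed here. The sensitization and challenge schedule, the event from which the hours count, and the mice's age and sex are absent from the sources used here. Each value is a log2 level of 1 probe set, comparable between mice but not between genes. Each difference is 24 h minus 6 h on that log2 scale, so that 1 stands for 2-fold, with its standard error (SE) from the model and n = 8 and 6 mice.

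Allergen that reaches a sensitized lung crosslinks IgE on mast cells and basophils and reactivates memory T helper cells, which release IL-4, IL-5 and IL-13. The first hours are known for transcripts of cytokines, chemokines, interferon-inducible genes and immediate early factors. Over the following day, monocytes and eosinophils enter the tissue, leukocytes and structural cells divide, and airway epithelium turns to mucus-producing goblet cells. Lung also has a strong circadian clock, in which ARNTL and its partners drive Per, Cry and Dbp genes and are repressed in turn.

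The 14 arrays had the profile of lung. The surfactant gene Sftpc lay between 14.19 and 14.44, the club cell gene Scgb1a1 between 14.27 and 14.54 and the alveolar type I gene Ager between 14.04 and 14.29. Sensitized 6 h replicates 2 and 3 stood apart from their group. Over all genes their median correlation was 0.9666 and 0.9426 with the other sensitized 6 h mice but 0.9825 and 0.9852 with naive 6 h mice, while the other 6 replicates correlated at 0.9703 to 0.9925 with their own group and at 0.8995 to 0.9604 with naive mice. Results are therefore given with all 8 mice and, where they moved, without these 2 replicates. Tissue from outside the lung was also present in single arrays: the mean level of 16 squamous epithelium genes was 10.87 in sensitized 6 h replicate 7 against 6.92 to 7.29 in the other 13 mice, and that of 14 skeletal muscle genes was 9.41 in replicate 3 against 6.88 to 7.69. The actin 3′ minus 5′ difference, a measure of RNA integrity, was 1.05 ± 0.14 (SD) at 6 h and 0.97 ± 0.04 at 24 h (two-sided exact permutation test, p = 0.214; adjusted over 2 arms, 0.214). In naive mice it was 1.23 ± 0.05 and 1.1 ± 0.07 (same exact permutation test, p = 0.0014; adjusted, 0.0028).

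Between 6 h and 24 h, 2420 genes rose and 1682 fell in the sensitized lung by limma at an adjusted p under 0.05 (Benjamini-Hochberg). These are 18.5% and 12.9% of the genes tested, 31.4% together. The counts of gene lists below are to be read against these shares. Naive mice at the same hours had 303 genes higher (2.32%) and 368 lower (2.82%), 5.14% together. The test of the difference between the arms' changes called 2115 genes (16.2%), 1289 with a change more upward in sensitized mice (9.88%) and 826 more downward (6.33%). Of these calls 60.9% were upward, against 49.5% with each array centred on its median and 50.6% after a further quantile normalization, so the balance of the directions depends on the scaling. The whole distribution was wider in sensitized mice, with an SD of the change over genes of 0.28 against 0.16 in naive mice and a median change of 0.02. Changes past 1 log2 unit numbered 83 upward and 65 downward in sensitized mice, against 7 and 14 in naive mice.

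Every 24 h mouse lay above every 6 h mouse in 467 genes (3.58%) and below in 275 (2.11%), against 78 (0.598%) and 98 (0.751%) in the naive arm. Few of the sensitized changes were shared with the naive arm. The genes higher in both arms numbered 150, which is 49.5% of the naive and 6.2% of the sensitized list, and those lower in both numbered 130, which is 35.3% and 7.73%. Opposite calls were made for 39 genes. Without 6 h replicates 2 and 3 the sensitized counts were 3331 higher and 2028 lower. Fitted on the 2 sensitized groups alone, whose 6 h spread is wider than in the other groups, they were 1453 and 1014. The median SD of a gene was 0.164 at sensitized 6 h and 0.113 at 24 h. The main fit shares 1 spread per gene over all 16 groups. For genes that varied more at sensitized 6 h than elsewhere, Cxcl11 among them, its SE and p-values are therefore too small. The tissue was whole lung, so fewer cells of a type and less RNA per cell cannot be told apart.

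**Figure D1:**
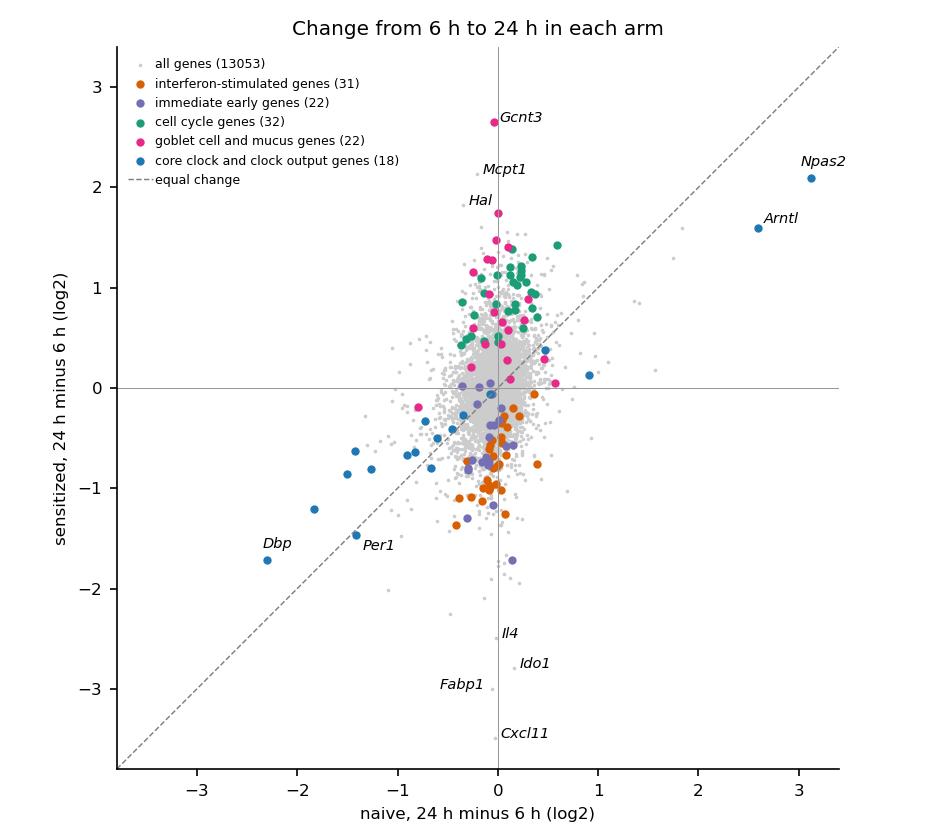
Change from 6 h to 24 h in naive mice (horizontal, log2) against sensitized mice (vertical, log2), 1 point per gene over 13053 genes, with 5 gene lists coloured and a dashed line of equal change. Per1 lies near the dashed line, and Npas2 and Dbp changed in the same direction in both arms, while interferon-stimulated genes, cell cycle genes, Gcnt3, Il4, Fabp1 and Cxcl11 lie along the vertical axis, where naive mice changed little.

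Interferon-inducible genes were among those that fell furthest, with Cxcl11 first of all genes. Cxcl11, a ligand of the chemokine receptor CXCR3 on activated T cells, ranged at 6 h from 5.6 over a median of 12.53 to 13.16 and at 24 h from 7.04 over 7.68 to 8.19. In 6 of the 8 mice at 6 h it stood above every 24 h mouse; replicates 2 and 3, at 7.64 and 5.6, lay within or below the 24 h range. It fell by 3.49 ± 0.52, an 11.3-fold lower level (limma adjusted p = 5.3e-08), and by 5.01 without those 2 mice. In naive mice the change was -0.03, and the arms' changes differed by -3.47 ± 0.71 (limma adjusted p = 0.000187). Cxcl10, another CXCR3 ligand, fell from a median of 13.17 to 10.42 (difference -1.9 ± 0.46; limma adjusted p = 0.000655; 0.115 with the sensitized groups fitted alone). The third of them, Cxcl9, had a difference of -1.17 ± 0.54 that missed the threshold (limma adjusted p = 0.0858) and of -2.48 without replicates 2 and 3 (limma adjusted p = 2.24e-06).

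Ido1, which degrades tryptophan along the kynurenine pathway, repeated this shape, with 7.01, 11.52 and 12.23 (lowest, median, highest) at 6 h and 7.41, 7.83 and 8.21 at 24 h. Its level was 6.93-fold lower at 24 h (difference -2.79 ± 0.33; limma adjusted p = 3.5e-11). Again the same 6 mice at 6 h exceeded all mice at 24 h, with replicates 2 and 3 at 7.78 and 7.01. The ubiquitin-like modifier Ubd fell by 1.94 ± 0.45, the transcription factor Batf2 by 1.75 ± 0.21 and Calhm6, an interferon-inducible channel family member, by 1.89 ± 0.26. None of these genes changed by more than 0.21 in naive mice, and the difference between the arms passed the test for each. Fitted on the sensitized groups alone, Ubd did not pass (limma adjusted p = 0.174). With only the 4 groups in the fit, the difference between the arms was lost for Ubd (limma adjusted p = 0.17) and for Cxcl10 (0.139).

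Of 31 interferon-stimulated genes measured, 29 fell and none rose, with a median difference of -0.76 against 0.02 over all genes. Ifit2, which binds viral RNA, separated the groups fully, with 10.8, 11.75 and 12.49 at 6 h and 10.17, 10.39 and 10.5 at 24 h (difference -1.26 ± 0.12; limma adjusted p = 4.63e-16). The immunity-related GTPase Iigp1 fell by 1.37 ± 0.25, the guanylate-binding protein Gbp3 by 1.13 ± 0.15, the oligoadenylate synthetase Oas3 by 1.09 ± 0.28 and the interferon regulatory factor Irf7 by 0.96 ± 0.17. GTPases and synthetases of these families have near-identical copies whose probes can share signal. The members that missed the threshold were Bst2 (-0.2) and Mx1 (-0.06). In naive mice limma called no member in either direction (1 higher and 1 lower at an unadjusted p under 0.05), and the median was -0.02. The difference between arms passed for 22 members, all downward.

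The list's mean level per mouse had a median of 11.6 at 6 h, with replicates 2 and 3 lowest at 10.67 and 10.28 and the highest mouse at 12.12. At 24 h all 6 mice lay between 10.53 and 10.8, and the naive means were 10.3 at 6 h and 10.28 at 24 h. Across the sensitized arm the mean was 10.58 at 0 h, 10.56 at 2 h, 11.42 at 6 h, 10.69 at 24 h and 10.5 at 48 h, so 6 h was the highest of these times. Without replicates 2 and 3, 30 of 31 members fell and the median was -1.06. Fitted on the sensitized groups alone, 19 fell.

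Promoters of these genes are shown for the stretch that holds the interferon-stimulated response element, the sequence that the STAT and IRF factors bind. The motif, GAAA and a further GAAA with 2 bases between them, was searched on both strands in the 250 bases before each RefSeq gene start (build GRCm38.p6). It was present in 11 of 29 promoters of the 23 genes matched (37.9%), against 2.98% of all 32851 promoters. Of the 11 genes with a match 10 fell and Bst2 did not pass. Capitals mark the match, which reads TTTC first where it lies on the other strand. A match is a description of the letters, not evidence of binding. The matches shown belong to 5 members that fell by about 1 log2 unit, namely Gbp3 (chr3:142559984-142560023, + strand), Gbp2 (chr3:142620589-142620628, +), Oas3 (chr5:120777710-120777749, - strand), Igtp (chr11:58199507-58199546, +) and Irgm2 (chr11:58214898-58214937, +).
Gbp3: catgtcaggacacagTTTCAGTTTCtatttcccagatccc
Gbp2: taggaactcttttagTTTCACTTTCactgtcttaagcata
Oas3: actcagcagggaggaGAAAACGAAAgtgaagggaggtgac
Igtp: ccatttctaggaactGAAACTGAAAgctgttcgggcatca
Irgm2: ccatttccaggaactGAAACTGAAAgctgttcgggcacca
The stretches of Igtp and Irgm2, neighbouring GTPase genes, were identical at 38 of 40 bases. Their differences were -1.0 ± 0.17 and -0.99 ± 0.16, and for both the same count of 6 h mice, 6 of 8, lay above all 24 h mice. Gbp2 fell by 1.02 ± 0.15, with 7 of the 8 mice above.

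The peptide-loading side of MHC class I fell with this group. Of 11 genes of class I presentation 7 fell and none rose (median -0.28). The peptide transporters Tap1 (-0.78 ± 0.16) and Tap2 (-0.62 ± 0.11), their transactivator Nlrc5 (-0.66 ± 0.15) and the immunoproteasome subunits Psmb8, Psmb9 and Psmb10 (-0.28 to -0.3) were among them. Tap1, Psmb8 and Psmb9 were also counted in the interferon-stimulated list above, so the counts of these lists share genes. A second probe set of Tap1 gave 0.08. The heavy chains H2-K1 (0.04) and H2-D1 (0.05) and B2m (0.03) did not pass. Fitted on the sensitized groups alone, no member passed. Of 10 class II genes 2 rose, the invariant chain protease Ctss (0.23) and the thiol reductase Ifi30 (0.27), and none fell; the class II chains H2-Aa (0.09) and H2-Ab1 (0.11) missed the threshold.

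Type 2 cytokines also fell. Il4, the cytokine that directs IgE switching, was 6.07, 10.62 and 11.22 at 6 h (lowest, median, highest) and 7.32, 7.46 and 7.84 at 24 h. At 6 h, 7 of 8 mice lay above all 24 h mice, including replicate 2 at 9.55, while replicate 3 at 6.07 lay below them all. Il4 was 5.6-fold lower at 24 h (difference -2.49 ± 0.4; limma adjusted p = 3.62e-07), and naive mice lay between 6.02 and 6.38 at both times. Its sensitized means were 6.66 at 0 h and 8.55 at 2 h.

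Of the 10 genes for type 2 cytokines and their receptors, 6 fell and none rose (median -0.43, against 0.02 over all genes). Il5, the survival factor of eosinophils, fell from a median of 8.85 to 6.92 (difference -1.37 ± 0.31; limma adjusted p = 0.000232). Il10 fell by 0.82 ± 0.31, the receptor chain Il4ra by 0.46 ± 0.09 and Il13ra1 by 0.35. Tslp, an epithelial cytokine, separated the groups in all mice, at 10.45 to 11.21 against 9.87 to 10.39 (difference -0.81 ± 0.11), and it also fell in naive mice, by 0.37 (limma adjusted p = 0.0118). Il13, which drives mucus and airway hyperreactivity, ranged up to 10.74 at 6 h and to 9.21 at 24 h, but its difference was -0.4 ± 0.35 (limma adjusted p = 0.414), with replicate 3 at 6.3. Without replicates 2 and 3 it was -1.24 (limma adjusted p = 0.000278) and 8 of the 10 genes fell. With the sensitized groups alone, 3 fell. The alarmin Il33 changed by -0.12 and did not pass.

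Mcpt8, a protease of basophils, followed Il4: 7.35, 11.1 and 12.07 at 6 h, and 8.39, 8.65 and 8.89 at 24 h, with 7 of 8 mice above all 24 h mice and replicate 3 again lowest. It fell by 2.09 ± 0.36 (limma adjusted p = 1.58e-06), a 4.27-fold lower level, while naive mice changed by -0.14 without passing. Mcpt1 and Mcpt2, proteases of mucosal mast cells, moved the other way. Mcpt1 was 4.36, 5.76 and 6.76 at 6 h and 6.52, 7.83 and 9.11 at 24 h. It was 4.36-fold higher (difference 2.13 ± 0.35; limma adjusted p = 6.61e-07), with 4 of 6 mice above every 6 h mouse and a broad spread among the 24 h mice.

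Mcpt2 rose by 1.61 ± 0.4 (limma adjusted p = 0.000926), from a median of 7.23 to 8.85. Sensitized means of Mcpt1 were 5.16 at 0 h, 4.45 at 2 h and 7.26 at 48 h, and naive mice lay between 4.16 and 4.72. The protein sequences of this family are close and their probes may share signal. Other mast cell genes did not pass, among them the carboxypeptidase Cpa3 (0.08 ± 0.19), the tryptase Tpsb2 (0.12 ± 0.17) and the connective tissue protease Mcpt4 (-0.22), whereas the receptor Kit fell by 0.29. In all, 2 of 11 mast cell and basophil genes rose and 2 fell, and without replicates 2 and 3 it was 2 and 3.

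**Figure D2:**
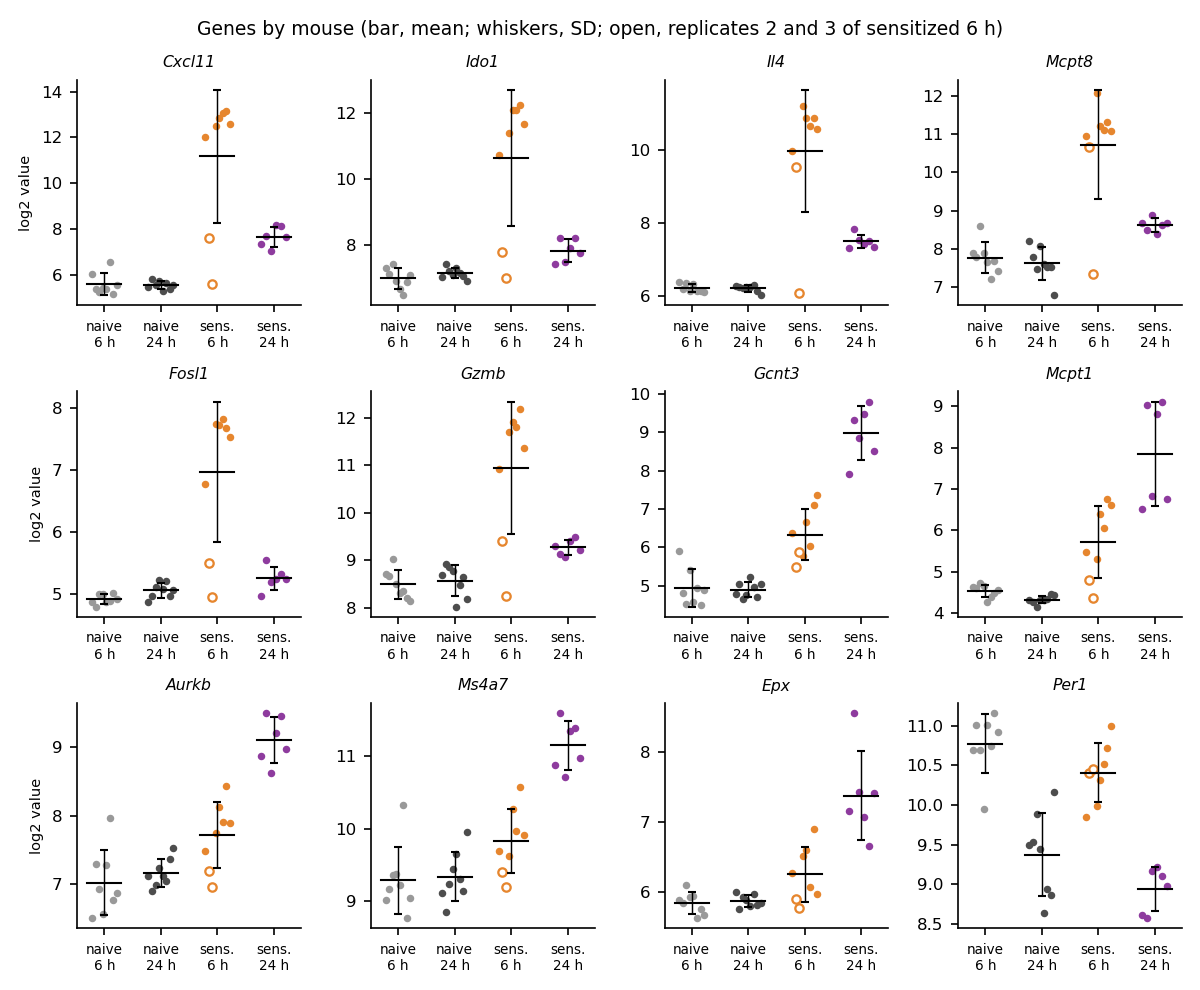
Log2 level in each mouse of naive and sensitized groups at 6 h and 24 h for single genes, with bars at the mean and whiskers of 1 SD; open points are sensitized 6 h replicates 2 and 3. In Cxcl11, Ido1 and Il4 most 6 h points lie above the 24 h points while the open ones of replicate 3 lie at or below them, and in Gcnt3 and Aurkb the 24 h points lie above all 6 h points.

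Inflammatory cytokines of innate cells fell with them. Acod1, the macrophage enzyme that makes itaconate, was 5.74, 11.47 and 12.23 at 6 h and 7.5, 8.26 and 9.05 at 24 h (difference -2.25 ± 0.49; limma adjusted p = 0.000122). Osm, a cytokine of the IL-6 family, went from 7.43, 10.67 and 11.27 to 7.98, 8.48 and 8.72 (difference -1.78 ± 0.29; limma adjusted p = 3.82e-07). Il6 itself fell by 1.85 ± 0.6 (limma adjusted p = 0.012) from a median of 10.56 to 8.09. With the sensitized groups fitted alone neither Acod1 nor Il6 passed (limma adjusted p = 0.0965 and 0.106). In these genes replicate 3 was the lowest 6 h mouse, at 5.74, 7.43 and 5.29.

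Of 26 acute inflammatory and acute phase genes, 15 fell and none rose (median -0.44). They include the endothelial adhesion molecules Sele (-0.96 ± 0.21) and Selp (-0.9 ± 0.27), the receptor antagonist Il1rn (-0.74 ± 0.29) and Tnf (-0.65 ± 0.14). Members that did not pass include Il1b (-0.44), the acute phase genes Saa3 (0.48) and Orm1 (-0.34), and the prostaglandin synthase Ptgs2 (0.01). Of 14 NF-kB inhibitors and feedback genes 10 fell (median -0.31), led by the cofactor Bcl3 (-0.71 ± 0.21) and the deubiquitinase Tnfaip3 (-0.55 ± 0.16). Of 6 JAK-STAT feedback genes 3 fell, with Socs3 at -0.71 ± 0.19. With the sensitized groups fitted alone the calls were 4 of 26 and 1 of 14, and without replicates 2 and 3 they were 18 and 13.

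Immediate early genes were lower at 24 h in 17 of 22 cases and higher in none (median -0.58, with 1 lower in naive mice). Fosl1, an AP-1 subunit, was 4.95, 7.61 and 7.83 at 6 h and 4.96, 5.23 and 5.55 at 24 h (difference -1.72 ± 0.26; limma adjusted p = 9.96e-08). Replicate 2 lay in the 24 h range at 5.49 and replicate 3 just below it at 4.95. The transcription factor Myc fell by 1.17 ± 0.23 and Fosb by 1.3 ± 0.41. Egr1, induced within minutes by growth factor signals, separated the groups with these replicates included: it was 13.02 to 13.58 at 6 h and 12.36 to 12.91 at 24 h, without overlap (difference -0.77 ± 0.15; limma adjusted p = 3.97e-05). Without these replicates 16 fell, and with the sensitized groups alone 10. The list's sensitized mean was 10.81 at 0 h, 10.93 at 2 h, 11.25 at 6 h and 10.68 at 24 h.

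Nucleolar genes that build ribosomes fell in 12 of 17 cases, with none higher (median -0.28; naive median 0.03 with 1 call upward, Heatr1 at 0.2). Rrp12, a factor in pre-ribosome maturation, was 8.19, 9.75 and 9.96 at 6 h and 8.54, 8.59 and 8.85 at 24 h (difference -0.76 ± 0.12; limma adjusted p = 1.55e-07). The RNA polymerase I subunit Polr1b fell by 0.57 ± 0.09 and the box C/D protein Nop58 by 0.48 ± 0.1. All 17 fell without replicates 2 and 3, and 5 with the sensitized groups alone.

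Of 22 T cell genes 3 fell and none rose (median -0.02), a share of falls near the 12.9% over all genes. Of 12 natural killer and cytotoxic genes 5 fell (median -0.29). Gzmb, a cytotoxic granule protease, was 8.25, 11.53 and 12.18 at 6 h and 9.07, 9.26 and 9.5 at 24 h (difference -1.67 ± 0.25; limma adjusted p = 7.32e-08). Il2ra, the inducible chain of the IL-2 receptor, fell by 1.46 ± 0.26, Ifng by 1.22 ± 0.29, Ctla4 by 0.78 ± 0.24 and Tnfrsf4, which encodes the co-stimulator OX40, by 0.78 ± 0.19. For Il2ra, Ifng, Ctla4 and Tnfrsf4 alike, 6 of the 8 mice at 6 h lay above all 24 h mice. Il2ra did not pass with the sensitized groups fitted alone (limma adjusted p = 0.0823). Icos, an inducible co-stimulator of activated T cells, differed by 0.0 ± 0.21 and did not pass.

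The T cell receptor subunit Cd3e differed by 0.01 ± 0.12 and Cd4 by 0.27 ± 0.11 (limma adjusted p = 0.0561). Without replicates 2 and 3 the count of T cell genes that fell was 7, with array weights 11 and with the sensitized groups alone 0. The natural killer receptors Ncr1 (-0.56 ± 0.21) and Klrk1 (-0.47 ± 0.15) fell. The perforin gene Prf1 changed by 0.08 and did not pass. Of 15 dendritic cell genes 5 fell and 2 rose (median -0.23). The co-stimulator Cd80 (-0.55 ± 0.11), the factor Batf3 (-0.61 ± 0.24) and the lectin Cd209a (-0.49 ± 0.18) were lower, and the receptor Flt3 (0.42 ± 0.09) was higher. Without replicates 2 and 3, 9 fell and 1 rose.

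Chemokines outside the interferon group split. Ccl17, a ligand of CCR4 on type 2 T cells, was 9.55, 13.34 and 13.59 at 6 h and 11.04, 11.41 and 11.64 at 24 h (difference -1.25 ± 0.35; limma adjusted p = 0.00347). Ccl3 and Ccl4, which recruit monocytes and lymphocytes, fell by 1.4 ± 0.36 and 1.34 ± 0.29, and Cxcl2, which recruits neutrophils, fell by 1.23 ± 0.48 (limma adjusted p = 0.0396). Ccl8, a ligand of CCR8 and CCR2, rose by 1.28 ± 0.4 (limma adjusted p = 0.00869), but its difference was 0.53 without replicates 2 and 3 (limma adjusted p = 0.263). With only the 4 groups in the fit, the difference between the arms for Ccl8 did not pass (limma adjusted p = 0.0994). Its 6 h values ran from 8.88 in replicate 3 over a median of 12.58 to 13.24, against 13.05 to 13.57 at 24 h. Ccl20, made by epithelium, rose by 0.68 ± 0.26.

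Among 8 CC chemokines of allergic inflammation, 2 rose and 1 fell; without the 2 replicates, none rose and 4 fell. The eotaxin genes Ccl11 (0.07 ± 0.39) and Ccl24 (-0.73 ± 0.37) did not pass with all mice. Of 8 CXC chemokines for neutrophils Cxcl2 fell, while Cxcl15 (0.11), a gene of alveolar epithelium, and the platelet gene Pf4 (0.33) rose. Of 5 macrophage CC chemokines 2 fell. Of 14 neutrophil genes 3 fell (median -0.39), the receptors Trem1 (-0.95 ± 0.22), Clec4e (-0.89 ± 0.32) and Fpr2 (-0.6 ± 0.21), and 7 fell without replicates 2 and 3. The granule genes Camp (0.52) and Ngp (0.4) did not pass. Mean levels of the neutrophil list ran from 9.16 to 10.62 in the 6 h mice and from 9.45 to 9.99 at 24 h. They reached 11.02 to 11.4 in naive 6 h replicates 1, 3 and 4, against 8.78 to 9.43 in the other 5 naive 6 h mice, and the part of this in the naive comparison was not tested.

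**Figure D3:**
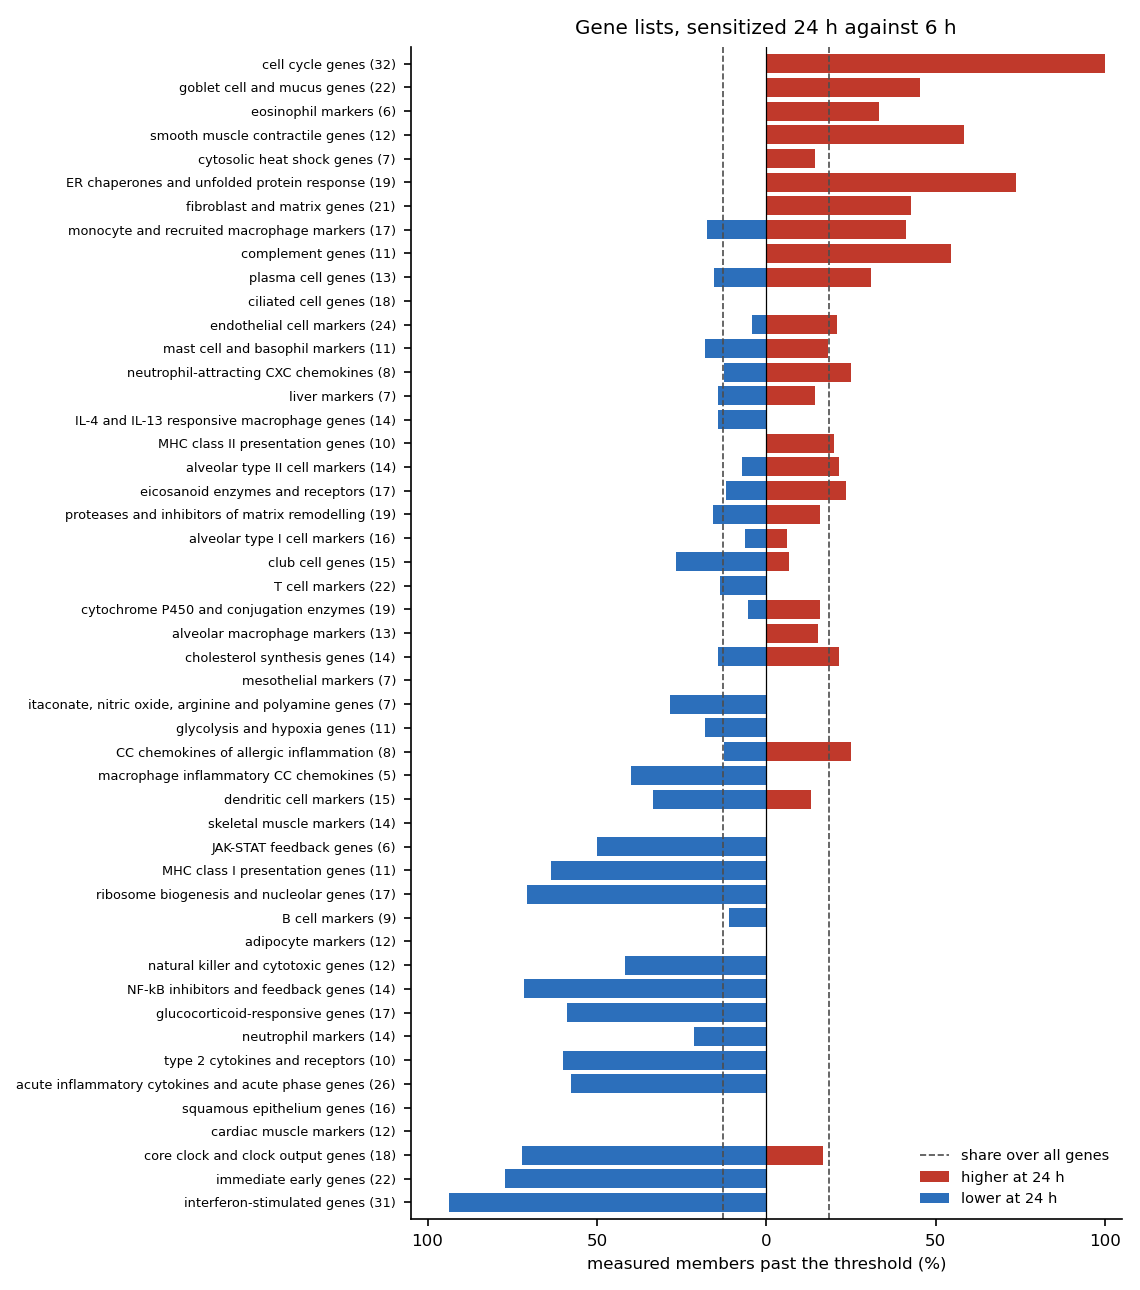
Share of the measured members of each gene list (number in brackets) that rose (right, red) or fell (left, blue) at 24 h against 6 h in sensitized mice, ordered by median difference, with dashed lines at the share over all 13053 genes. Cell cycle genes reach 32 of 32 on the right, interferon-stimulated genes 29 of 31 on the left, and the lists of squamous, muscle and fat tissue have no member past the threshold.

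In the upward direction, genes of cell division were the most uniform of the 52 lists. All 32 cell cycle genes measured rose, with a median difference of 0.94 and a range from 0.43 (the replication licensing factor Cdt1) to 1.43 (Bub1). In naive mice 1 rose and 1 fell, with a median of 0.14, and the difference between the arms passed for 24, all upward. Bub1, a kinase of the spindle checkpoint, was 7.19, 8.01 and 8.67 at 6 h and 8.94, 9.43 and 9.86 at 24 h. All 24 h mice lay above all 6 h mice (difference 1.43 ± 0.18; limma adjusted p = 3.46e-10). Bub1 also rose in naive mice, by 0.59 (limma adjusted p = 0.0172).

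Aurkb, a kinase of chromosome segregation, was 6.96, 7.82 and 8.44 against 8.63, 9.09 and 9.5, again without overlap (difference 1.39 ± 0.21; limma adjusted p = 5.66e-08). Replication genes rose with the mitotic ones: the helicase subunits Mcm6 and Mcm5 by 0.95 ± 0.15 and 0.86 ± 0.16 and the repair gene Rad54b by 1.4 ± 0.2. Division genes outside the list were among the 20 strongest rises too. They were Ska1 (1.54 ± 0.22), which ties kinetochores to microtubules, Esco2 (1.54 ± 0.23) and Cdca5 (1.36 ± 0.26), which establish sister chromatid cohesion, Shcbp1 (1.37 ± 0.22) and Clspn (1.35 ± 0.26), a checkpoint adaptor. Second probe sets of Ska1 (0.79) and Clspn (0.52) gave smaller rises. Cenpk, a kinetochore subunit, rose by 1.24 ± 0.18 while naive mice changed by -0.34, and the difference between the arms was 1.58 ± 0.25 (limma adjusted p = 2.08e-06).

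The list's mean level ran from 8.18 over a median of 8.91 to 9.44 at 6 h and from 9.34 over 9.73 to 10.17 at 24 h. Its sensitized means over time were 9.2 at 0 h, 8.59 at 2 h, 8.88 at 6 h, 9.79 at 24 h, 9.46 at 48 h, 9.74 at 72 h and 8.59 at 168 h. Of these, 24 h was the highest. All 32 calls were made without replicates 2 and 3 (median 0.76), and 30 with the sensitized groups alone.

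The short cell cycle homology motif TTTGAA, found near the start of many G2 and mitotic genes, was searched as above because all members rose. It was in 8 of 28 promoters of the 26 matched genes (28.6%) and in 5252 of all 32851 promoters, so its share was 1.79 times that over all promoters. A match in capitals is shown for Cdk1 (chr10:69352963-69352998, - strand), the mitotic kinase. Another is shown for Kif11 (chr19:37376348-37376381, + strand, match on the other strand), the bipolar spindle motor. Cdk1 had a further match, 9 to 15 bases from the gene start, that is not shown.
Cdk1: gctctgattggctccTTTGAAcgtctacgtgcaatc
Kif11: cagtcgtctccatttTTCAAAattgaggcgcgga
Cdk1 rose by 1.11 ± 0.23, from a median of 9.85 to 10.76, and Kif11 by 1.17 ± 0.21, from 7.24 to 8.4. In both, 5 of 6 mice at 24 h lay above every 6 h mouse.

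**Figure D4:**
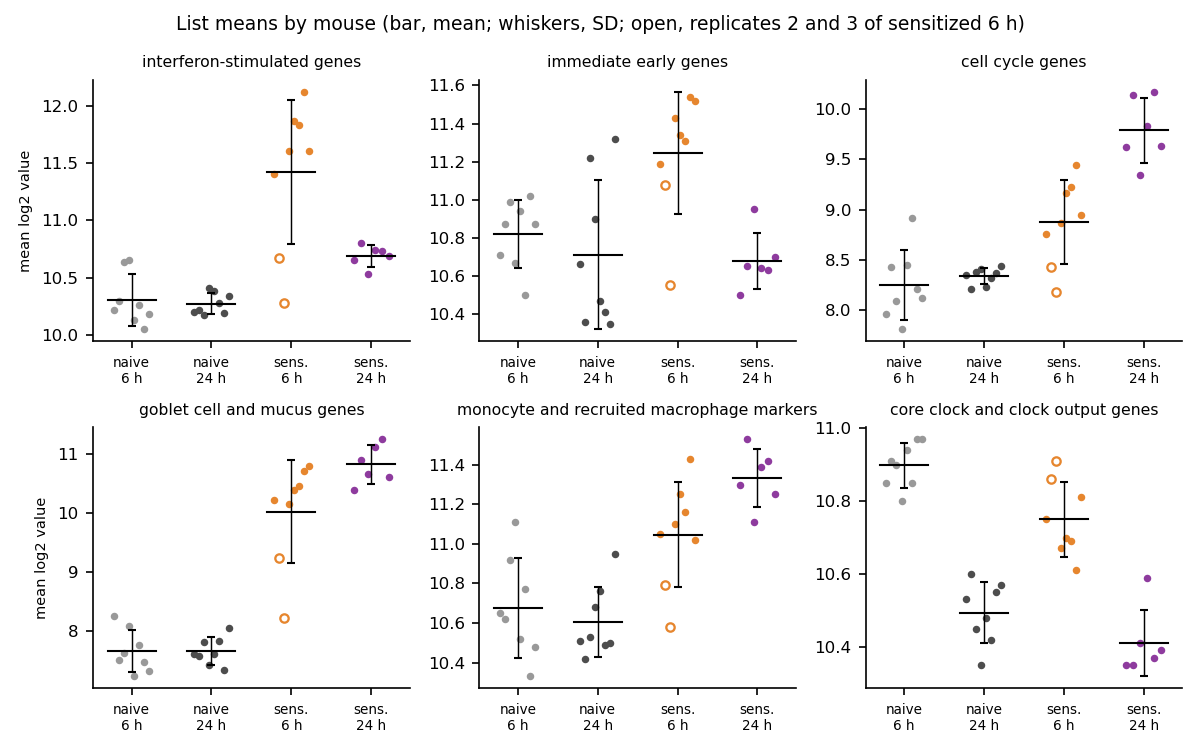
Mean log2 level of the members of 6 gene lists in each mouse, naive and sensitized at 6 h and 24 h, with bars at the mean and whiskers of 1 SD; open points are sensitized 6 h replicates 2 and 3. Interferon-stimulated genes lie at 10.53 to 10.8 in all 24 h mice and up to 12.12 at 6 h, and cell cycle genes lie at 9.34 to 10.17 at 24 h and 8.18 to 9.44 at 6 h.

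Mucus genes rose, with Gcnt3 in front of all genes. Gcnt3, which builds the branched O-glycans of mucins, was 5.49, 6.2 and 7.36 at 6 h and 7.92, 9.09 and 9.8 at 24 h, without overlap. The level was 6.3-fold higher (difference 2.65 ± 0.31; limma adjusted p = 2.96e-11), and naive mice changed by -0.04. In the sensitized arm it stood at 9.14 at 0 h and 5.46 at 2 h, so the level at 2 h and 6 h was the low one.

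Muc5ac, the main inducible airway mucin, went from 7.54, 10.03 and 11.07 to 10.3, 11.11 and 12.19 (difference 1.48 ± 0.34; limma adjusted p = 0.000284), with 3 of 6 mice above all 6 h mice. It was 10.73 at 0 h and 8.16 at 2 h. The calcium protease Capn9 (1.41 ± 0.36), the actin-severing protein Scin (1.28 ± 0.39), the ion transport regulator Fxyd4 (1.29 ± 0.5) and the mucus component Fcgbp (0.94 ± 0.27) also rose. In all, 10 of 22 goblet cell and mucus genes rose and none fell (median 0.67). The difference between the arms passed for 4 members upward and for 1 downward. Clca1, a secreted metalloprotease of goblet cells, did not pass at 1.16 ± 0.62; its 6 h values spread from 6.89 in replicate 3 to 14.06.

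Much of this group rests on replicates 2 and 3, whose list means of 9.24 and 8.21 were the lowest beside a 6 h median of 10.31. Without them 5 of 22 rose (median 0.32). Gcnt3 stayed at 2.44 and Muc5ac at 0.86 (limma adjusted p = 0.0242), whereas Capn9 (0.68), Scin (0.7) and Fxyd4 (0.01) no longer passed. With the sensitized groups alone 3 rose, and Muc5ac (limma adjusted p = 0.0749), Capn9 (0.0916) and Retnlb (0.117) did not pass. With only the 4 groups in the fit the difference between the arms for Muc5ac did not pass (limma adjusted p = 0.0713). Retnlb, a secreted protein of goblet cells outside the list, rose by 1.47 ± 0.4 with all mice and by 0.7 without them (limma adjusted p = 0.133). The list's means were 10.45 at 0 h, 8.65 at 2 h, 10.02 at 6 h, 10.83 at 24 h and 10.95 at 48 h.

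Of 17 monocyte and recruited macrophage genes 7 rose and 3 fell (median 0.2). Ms4a7, a membrane protein of macrophages, was 9.2, 9.8 and 10.57 at 6 h and 10.71, 11.16 and 11.59 at 24 h, with no overlap (difference 1.32 ± 0.25; limma adjusted p = 1.1e-05). The lipid receptor Trem2 rose by 1.01 ± 0.22, the glycoprotein Gpnmb by 1.07 ± 0.32 and Adgre1, which encodes F4/80, by 0.7 ± 0.19. The complement subunit C1qa, made by macrophages, rose from a median of 11.18 to 12.1 (difference 0.94 ± 0.18). The 3 that fell were the Fc receptor Fcgr4 (-0.66 ± 0.16), the endotoxin co-receptor Cd14 (-0.63 ± 0.19) and Plac8 (-0.55 ± 0.15).

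Complement genes rose in 6 of 11 cases, 3 of them the C1q chains, with none lower. With each array centred on its median the split was 5 and 2, and without replicates 2 and 3 it was 3 and 2. The matrix proteases Mmp12 (1.19 ± 0.43) and Ctsk (0.74 ± 0.24), both of macrophages, rose with all mice and had differences of 0.4 and 0.42 without passing once replicates 2 and 3 were left out. Of 19 proteases and inhibitors 3 rose and 3 fell, the plasminogen activator Plau (-0.88 ± 0.18) among the latter. Both shares lay near those over all genes, 18.5% higher and 12.9% lower. Alveolar macrophage genes gave 2 of 13 higher, Itgax (0.48 ± 0.19) and Atp6v0d2 (0.46), and none without replicates 2 and 3. Of 14 genes of macrophages that respond to IL-4 and IL-13 none rose and 2 fell. The chitinase-like Chil4 missed the threshold at 1.74 (limma adjusted p = 0.0502). The share of alveolar macrophage genes that rose was also near that over all genes. So was the share of IL-4 and IL-13 responsive genes that fell.

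Eosinophil granule genes were higher at 24 h. Epx, the eosinophil peroxidase, was 5.78, 6.18 and 6.91 at 6 h and 6.66, 7.29 and 8.56 at 24 h, with 5 of 6 mice above all 6 h mice (difference 1.13 ± 0.2; limma adjusted p = 4.72e-06). Prg2, the major basic protein, rose by 1.16 ± 0.3 (limma adjusted p = 0.00157), from a median of 6.17 to 7.43. The eotaxin receptor Ccr3 did not pass at 0.78 ± 0.42. In all 2 of 6 eosinophil genes rose and none fell (median 0.47), and 2 rose also without replicates 2 and 3 and with the sensitized groups alone. Naive mice stayed between 5.63 and 6.11 for Epx.

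Plasma cell genes gave 4 higher and 2 lower of 13 (median 0.19). Mzb1, a chaperone of antibody secretion, was 9.44, 10.66 and 11.47 at 6 h and 10.77, 11.65 and 12.55 at 24 h (difference 1.08 ± 0.28; limma adjusted p = 0.00177). Derl3, of the endoplasmic reticulum (ER), rose by 0.9 ± 0.23 and the joining chain Jchain by 0.75 ± 0.28. The plasma cell regulator Prdm1, which activated T cells also express, fell by 0.45 ± 0.11. Of 9 B cell genes 1 fell, the low-affinity IgE receptor Fcer2a (-0.58 ± 0.23), and none rose. Without replicates 2 and 3 the plasma cell counts were 2 and 3.

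Chaperones of the ER rose by small amounts in most members. Sdf2l1 was 9.51, 10.56 and 10.93 at 6 h and 10.98, 11.3 and 11.73 at 24 h, without overlap (difference 0.92 ± 0.19; limma adjusted p = 4.98e-05). Creld2 rose by 0.7 ± 0.13, the mannosidase-like Edem1, which sorts misfolded proteins, by 0.67 ± 0.18 and the main chaperone Hspa5 (BiP) by 0.33 ± 0.07. In all, 14 of 19 rose and none fell (median 0.26), while the stress factors Atf4 (0.0), Ddit3 (0.08) and Trib3 (-0.26) did not pass. In naive mice the list's median was 0.16, with 1 member higher and 1 lower by limma. At an unadjusted p under 0.05, 9 were higher and 1 was lower. Naive mice had a change of 0.16 in Hspa5 and 0.26 in Creld2, neither past the threshold. The difference between the arms passed for 4 members. Without replicates 2 and 3, 10 rose, and with the sensitized groups alone 8.

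The ER stress response element, CCAAT and CCACG with 9 bases between them, is bound by ATF6 and NF-Y and was searched likewise. It was in 5 of 17 promoters of this list (29.4%) and in 0.113% of all promoters. Stretches of 3 members that rose are shown with the match in capitals, Hspa5 (chr2:34772010-34772058, + strand), Pdia6 (chr12:17266476-17266524, +) and Creld2 (chr15:88819505-88819553, +, match on the other strand). 
Hspa5: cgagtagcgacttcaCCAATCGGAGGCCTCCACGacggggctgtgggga
Pdia6: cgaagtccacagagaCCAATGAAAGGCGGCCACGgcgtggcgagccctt
Creld2: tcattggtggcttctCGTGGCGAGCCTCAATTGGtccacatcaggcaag
Pdia6, a disulfide isomerase, rose by 0.39 ± 0.08, with 5 of 6 mice at 24 h above every 6 h mouse, as for Hspa5 and Creld2.

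Matrix and muscle genes rose modestly. Eln, elastin, was 10.86, 11.02 and 11.81 at 6 h and 12.01, 12.19 and 12.43 at 24 h, without overlap (difference 1.04 ± 0.13; limma adjusted p = 4.61e-10). It rose in naive mice by 0.84 (limma adjusted p = 1.44e-07), and the arms' changes differed by 0.2 ± 0.18 (limma adjusted p = 0.497). The collagens Col5a2 (0.58 ± 0.11) and Col14a1 (0.56 ± 0.11) separated the sensitized groups fully and changed by 0.14 and -0.14 in naive mice. For both the difference between arms passed (limma adjusted p = 0.034 and 0.000633).

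Of 21 fibroblast and matrix genes 9 rose and none fell (median 0.22), against 11 and 1 without replicates 2 and 3. In naive mice limma called 3 higher and none lower (median 0.08), and 6 were higher at an unadjusted p under 0.05. The difference between the arms passed for 3 members, all upward, and its median was 0.02. Of 12 smooth muscle genes 7 rose and none fell (median 0.32). Actg2, an actin of visceral muscle, was 11.12 to 11.43 at 6 h and 11.77 to 11.94 at 24 h (difference 0.6 ± 0.14), Acta2 rose by 0.31 ± 0.06 and the myosin Myh11 by 0.4 ± 0.13. With the mean over all probe sets of a gene the muscle count was 4; other probe sets of Acta2 gave 0.07 and of Myh11 -0.04.

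Few genes of resting airway and alveolar cells passed the test, and more did with array weights. None of 18 ciliated cell genes passed by limma in either direction, nor at an unadjusted p under 0.05 (median 0.09), for instance the ciliogenesis factor Foxj1 at 0.18. Of 16 alveolar type I genes 1 rose and 1 fell, and of 14 type II genes 3 rose and 1 fell, with Sftpc at 0.03 and the lysozyme Lyz1 falling by 0.51 ± 0.1. Of 15 club cell genes 1 rose and 4 fell, among them the secretoglobin Scgb3a2 (-0.38 ± 0.11; -0.16 without replicates 2 and 3). Of 24 endothelial genes 5 rose and 1 fell, Apold1, an early response gene of endothelium, at -0.98 ± 0.21 and without overlap. The shares of type II and endothelial genes that rose were near the 18.5% over all genes. With each array centred on its median, 2 endothelial genes rose. With array weights 4 of the 18 ciliated, 7 of the 16 type I, 7 of the 14 type II, 4 of the 15 club cell and 12 of the 24 endothelial genes rose, and 0, 1, 1, 1 and 3 fell.

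Fabp1, a fatty acid carrier best known from liver and gut, was second among all falls and had a different shape from the inflammatory genes. It was 8.9, 9.85 and 11.19 at 6 h and 6.54, 6.94 and 7.42 at 24 h, without overlap (difference -3.0 ± 0.36; limma adjusted p = 9.12e-11), 8.01-fold lower. Naive mice lay between 10.73 and 11.47 at both times. Replicates 2 and 3, at 11.12 and 11.19, were in the naive range, and the difference without them was -2.61. Sensitized means were 10.91 at 2 h and 8.29 at 48 h. Of 7 liver genes Fgg, a fibrinogen chain, fell by 1.25 ± 0.18 without overlap and Ahsg rose by 0.51, while Alb (0.01) and Apoa1 (0.07) did not pass.

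Single genes of other roles also changed. Hal, which degrades histidine, rose from 7.18, 8.13 and 8.82 to 9.26, 9.76 and 10.79, without overlap (difference 1.82 ± 0.28; limma adjusted p = 1.05e-07), against -0.35 in naive mice. Cyp1a1, a target of the aryl hydrocarbon receptor, rose by 1.26 ± 0.18, also without overlap, in a list of 19 cytochrome P450 and conjugation enzymes of which 3 rose and 1 fell. Gpr34, a lysophospholipid receptor, was at 6.23 to 8.58 at 6 h and 8.43 to 8.76 at 24 h (difference 1.56 ± 0.21). Its naive means were 8.16 and 8.25, and most 6 h mice lay below them, replicates 2 and 3 being highest at 7.96 and 8.58.

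Cyp26b1, which degrades retinoic acid, fell by 2.01 ± 0.6, with -1.09 in naive mice (limma adjusted p = 0.292). Among 17 eicosanoid genes 4 rose and 2 fell. Alox5ap, the partner of 5-lipoxygenase, rose by 0.44 ± 0.11 in sensitized mice and fell by 0.33 in naive mice, a difference of 0.78 ± 0.14 (limma adjusted p = 4.42e-05). Lta4h, which makes leukotriene B4, rose by 0.37 ± 0.06 and in naive mice by 0.25. The sterol enzyme Lss fell by 0.57 ± 0.08 without overlap, although a second probe set gave -0.03. In the cholesterol list 3 of 14 rose and 2 fell, and of 7 cytosolic heat shock genes 1 rose, the chaperone Hsph1 (0.61).

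Clock genes moved in both arms. Of 18 clock and clock output genes 3 rose and 13 fell in sensitized mice (median -0.56), and 4 rose and 13 fell in naive mice (median -0.7). Across these 18 genes the arms' changes correlated at r = 0.98, against 0.27 over all 13053 genes; both are descriptions over genes, which are not independent replicates. Npas2, a partner of ARNTL, was 7.85, 8.11 and 8.5 at 6 h and 9.51, 10.34 and 10.71 at 24 h in sensitized mice (difference 2.09 ± 0.2; limma adjusted p = 1.01e-14). In naive mice it rose by 3.12.

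The amplitude differed for some of them. The rise of Npas2 was smaller in sensitized mice by 1.03 (difference of changes -1.03 ± 0.28; limma adjusted p = 0.00469). For Arntl (1.6 against 2.59) the difference was -0.99 ± 0.22 (limma adjusted p = 0.000481), and the output gene Hlf fell by 0.63 against 1.42 (difference 0.79 ± 0.19; limma adjusted p = 0.0016). The repressor Per3 also fell by less (limma adjusted p = 0.0328). For Per1, which fell by 1.47 and 1.41, and Dbp, which fell by 1.72 and 2.3, the difference did not pass (limma adjusted p = 0.924 and 0.19).

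Per1 was 9.85 to 11.0 at 6 h and 8.57 to 9.21 at 24 h, and Dbp was 11.63 to 13.03 against 10.08 to 11.32, both without overlap. Second probe sets of Npas2 gave a smaller rise, 0.34. The E-box CACGTG, which the ARNTL dimers bind, was in 5 of 21 promoters of 16 clock genes (23.8%) and in 6.02% of all promoters. It is shown in capitals for Per1 (chr11:69098768-69098803, + strand) and Tef (chr15:81802531-81802566, +), a PAR-domain factor that fell by 0.67 ± 0.1 and in naive mice by 0.91.
Per1: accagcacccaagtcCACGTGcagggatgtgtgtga
Tef: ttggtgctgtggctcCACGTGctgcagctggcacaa
Per1 and Tef fell while Npas2 and Arntl rose, in both arms.

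Other genes followed the hour in both arms. Spon2, an extracellular matrix protein, rose by 1.6 ± 0.14 in sensitized and 1.84 in naive mice, and Fam124b by 1.3 ± 0.14 and 1.75. The sphingosine kinase Sphk2 fell by 1.57 ± 0.2 and 2.18, though a second probe set gave 0.24. Pfkfb3, a switch of glycolysis, fell in both arms and further in sensitized mice: 11.57 to 12.5 at 6 h against 10.65 to 10.99 at 24 h, a difference of -1.33 ± 0.09 beside -0.61 (difference of changes -0.73 ± 0.12; limma adjusted p = 6.33e-06). Of 11 glycolysis and hypoxia genes 2 fell, Pfkfb3 and the hexokinase Hk2 (-0.72 ± 0.16).

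Some naive changes were not called in sensitized mice. Adm, the vasodilator adrenomedullin, rose by 1.57 in naive mice and by 0.18 ± 0.2 in sensitized mice (difference of changes -1.39 ± 0.27; limma adjusted p = 0.000107). Rasl11a, a small GTPase, gave 1.1 and 0.26, and Spaar, a small polypeptide gene, 1.0 and 0.16, and both differences of changes passed (limma adjusted p = 3.57e-05 and 3.92e-05). Nfil3, a clock repressor also induced by cytokines, rose by 0.91 in naive mice and had 0.13 ± 0.24 in sensitized mice, a difference that did not pass (limma adjusted p = 0.102). Glucocorticoid-responsive genes fell in 10 of 17 cases in sensitized mice (median -0.37). In naive mice 4 fell and 1 rose (median -0.27). At an unadjusted p under 0.05, 11 were lower and none higher in sensitized mice, against 9 and 1 in naive mice. The difference between the arms passed for 3 members, all downward, and its median was -0.06. Falls in sensitized mice were led after Per1 by the metallothionein Mt2 (-1.1 ± 0.25) and the factor Cebpd (-1.06 ± 0.2).

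**Figure D5:**
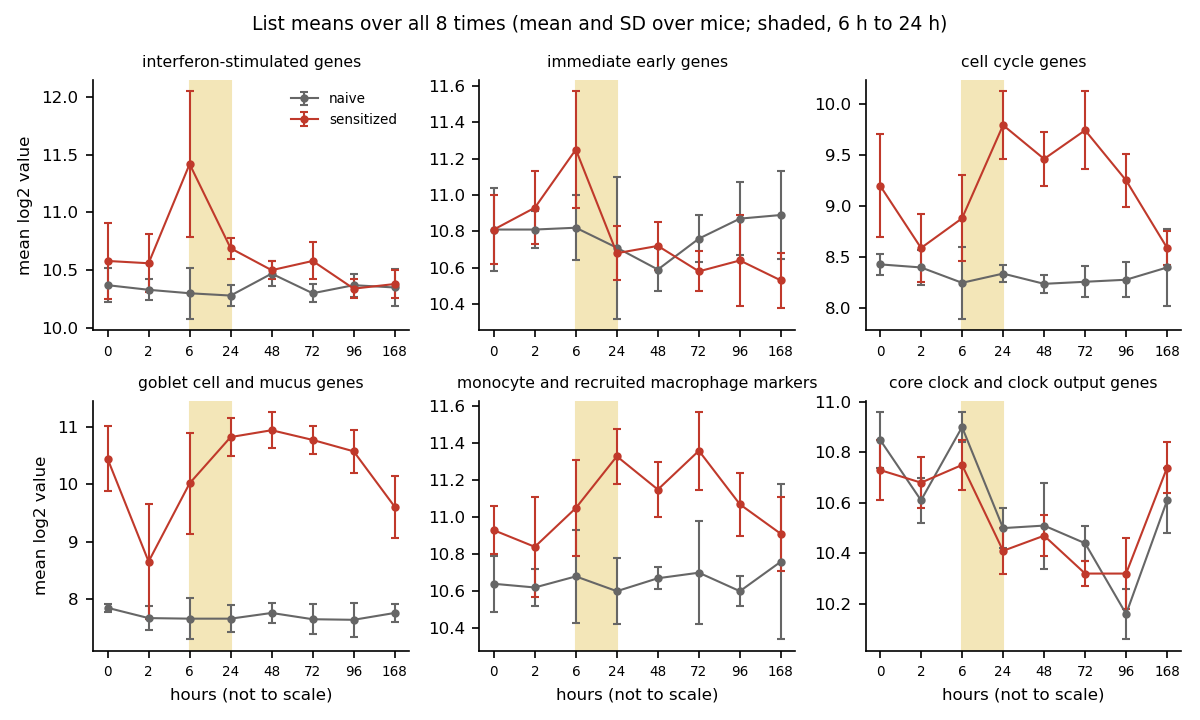
Mean log2 level of 6 gene lists over the 8 sampled times (hours, not to scale) in naive (grey) and sensitized (red) mice, mean and SD over mice, with 6 h to 24 h shaded. Interferon-stimulated genes peak at 11.42 at 6 h in sensitized mice, cell cycle genes go from 8.88 to 9.79 across the shaded interval, and clock genes fall in both arms.

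Apart from the liver list described above, lists of neighbouring tissue gave no calls. None of 16 squamous, 14 skeletal muscle, 12 cardiac muscle, 12 adipocyte, 7 mesothelial, 3 red blood cell and 3 thymocyte genes passed by limma in either direction. At an unadjusted p under 0.05, 1 squamous and 1 mesothelial gene were lower and no member of the other lists passed. Their medians ran from -0.48 (cardiac) to -0.02 (thymocyte). Cardiac and fat genes were nevertheless higher in the replicates that stood apart. The cardiac mean was 11.43 and 11.61 in replicates 2 and 3, within a 6 h range of 9.85 to 11.61, and the adipocyte mean was 9.45 and 10.24. The part of such tissue in the results was not tested. Leaving out all arrays with squamous or muscle signal gave 2461 genes higher and 1731 lower.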

How the data were processed

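Lung RNA was labelled with Affymetrix reagents for 3′ in vitro transcription, and RNA integrity numbers were above 6, per the labels' protocols. The authors deposited log2 values, 1 per probe set and array, made with RMA (background correction, quantile normalization and summary of probes) per the submitters' processing notes; no RMA version or filter is named in the sources used here. RMA compresses low signals and removes differences in total signal. The deposited table held 25697 probe sets, 10 of them controls; array medians lay between 9.32 and 9.44. Array data give no counting depth, so the number of arrays limits the precision.

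Platform annotation gave 22478 probe sets 1 gene symbol, 259 several (not named) and 2950 none listed. 5672 genes had more than 1 probe set and were represented by the one brightest on average across the study. Means of 16 groups were fitted to all arrays with limma 3.58.1 in R 4.3.3 (lmFit and eBayes, 107 residual degrees of freedom), which share 1 estimate of the spread. Contrasts were 24 h minus 6 h in each arm and their difference. P-values were adjusted by Benjamini-Hochberg over all 13053 genes within a contrast, threshold 0.05. In simulated data the fit recovered 88% of genes changed by 0.5, 97% by 1 and 100% by 2 log2 units, with 9 false calls among 13053 genes. The simulated noise was independent, equally wide in all groups and without mice that stood apart. These rates therefore do not carry over to the wider sensitized 6 h group.

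Genes named are the 20 highest and 20 lowest past the threshold in sensitized mice, the 10 highest and 10 lowest in the difference of changes, the 8 highest and 8 lowest in naive mice, and members of the 52 gene lists beside their counts; those carrying only a clone or locus name went unnamed. The comparison and the lists were chosen with earlier results of these data known. Promoters came from RefSeq (GRCm38.p6). Scripts used Python 3.11.15 with scipy 1.17.1, matplotlib 3.10.9, pandas 2.3.3 and numpy 2.4.6. Alternatives were another choice of probe set, samples in the fit, array weights, prior, level filter, scaling, and arrays left out.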

Additional observations from a re-analysis of the deposited data

Results flagged for a closer look

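Among 80 sets of values examined, each of 1 gene in 1 group of mice, 1 mouse lay far from the rest in 3 cases. Chance gives about 5% of independent sets, but these sets share mice and are not independent. All 3 were the lowest value of sensitized 6 h replicate 3: Il4 at 6.07 (next lowest 9.55), Il6 at 5.29 (next 9.41) and Mcpt8 at 7.35 (next 10.67). Without that mouse the differences were -3.04 for Il4, -2.51 for Il6 and -2.57 for Mcpt8, against -2.49, -1.85 and -2.09 with it.

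The change from 6 h to 24 h differed between the arms, by limma on the difference of changes, for the 20 genes named from that test. The sensitized change was more upward for Gcnt3 (2.69), Mcpt1 (2.34), Hal (2.17), Mcpt2 (1.78), Cenpk (1.58), Rad54b (1.57), Ccl8 (1.52), Clspn (1.5), Muc5ac (1.5) and Gpr34 (1.47). It was more downward for Cxcl11 (-3.47), Ido1 (-2.95), Fabp1 (-2.94), Il4 (-2.47), Ubd (-2.15), Calhm6 (-2.01), Mcpt8 (-1.95), Fosl1 (-1.87), Cxcl10 (-1.82) and Batf2 (-1.81).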

How the results depend on the processing

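None of the 40 genes named from the sensitized change reversed its direction under the 10 alternatives or when each of 30 arrays was left out. The same held for the 20 genes named from the difference of changes, wherever it was fitted. Other named genes were not part of this check. The balance of counts did turn: the naive 303 higher and 368 lower became 359 and 351 with the mean of probe sets, 360 and 309 after quantile normalization, 389 and 301 after centring and 342 and 335 without naive 24 h replicate 8, and it also turned with array weights and the level filter. The difference's 1289 and 826 became 1034 and 1054 after centring. Array weights, which gave sensitized 6 h replicates 2 and 3 little influence, raised the counts to 3950 higher and 2562 lower in sensitized mice, 1014 and 918 in naive mice and 3075 and 2003 in the difference of changes. Restricting the fit to the 6527 genes at or above the median level, which tests fewer genes, gave 1273 and 934, 158 and 149, and 595 and 485. With the 4 groups alone in the fit 521 genes had a lower change in sensitized mice, and the differences of changes of Ccl8 (adjusted p = 0.0994), Cxcl10 (0.139), Muc5ac (0.0713) and Ubd (0.17) were lost; the cause was not tested. Leaving out sensitized 6 h replicates 2 and 3, chosen after seeing the data, gave 2352 and 1412 in the difference. Fitting each arm alone, also chosen after seeing the data, gave 1453 and 1014 in sensitized mice, and Acod1, Capn9, Cxcl10, Il2ra, Il6, Muc5ac, Retnlb and Ubd no longer passed in that arm. Leaving out 1 array at a time gave 2132 to 2835 higher and 1446 to 1881 lower genes in sensitized mice, 213 to 342 and 265 to 406 in naive mice, and 1072 to 1725 and 679 to 1099 in the difference, the upper ends for sensitized mice coming without replicate 3 of 6 h. In sensitized mice 59.0% of calls were upward, against 53.2% with each array centred on its median and 54.1% after quantile normalization. No paired analysis was possible because the labels give no replicate numbers and each array is a different mouse. Levels near background are compressed, so folds of dim genes are understated.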
